A study of Mus musculus with 12 samples.

Results

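The proteasome subunit genes were described in the hippocampal CA1 subfield of mice after transient forebrain ischemia. Members were the genes whose single platform symbol is Psm followed by a letter from a to g and digits, and each was read from its probe set with the highest mean over all arrays. There were 46 members among the 12394 genes measured, read from 46 of their 83 probe sets. The choice used symbols and mean level, not a difference between groups.

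The 4 groups held 3 samples each, on 12 arrays, and every sample pooled the CA1 tissue of 2 mouse brains. They were SUMO-KD transgenic mice after 10 minutes of global cerebral ischemia and 3 hours of reperfusion, SUMO-KD transgenic mice after sham surgery, wild-type mice after the same ischemia and reperfusion, and wild-type mice after sham surgery. In SUMO-KD mice the level of SUMO, a small protein that is joined to other proteins much as ubiquitin is, is knocked down. The labels give neither the promoter of the transgene, nor the SUMO genes it targets, nor the age, sex or strain of the mice. The design asked which CA1 genes respond to ischemia in either genotype, and whether the response differs between them.

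The proteasome degrades proteins that carry ubiquitin chains. Its barrel-shaped core particle, the 20S, is built of rings of alpha subunits around rings of beta subunits, some of which cut peptide bonds. The 19S regulatory particle caps the core, binds and unfolds the substrate and removes its ubiquitin. Other activators can take the place of the 19S, dedicated chaperones assemble both particles, and interferon exchanges the cutting subunits for inducible ones that favour peptides for antigen presentation. In neurons the proteasome turns over synaptic proteins, and its activity is known to fall in vulnerable neurons after brain ischemia.

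Values below are array intensities, in the unit of the deposited table, in which every array had the same trimmed mean. Differences are log2(intensity + 32), so those of dim genes are understated, and a gene was called at a Benjamini-Hochberg adjusted p under 0.05 over all 12394 genes from limma's moderated test. In CA1 tissue, fewer cells of a type and less RNA per cell cannot be told apart. The 5′ control for 18S ribosomal RNA read 1275 to 1660 on 5 ischemia arrays, 4127 on the array of SUMO-KD ischemia replicate 2, and 4194 to 6528 on sham arrays, so this technical signal moved with surgery. Of 5 CA1 pyramidal markers, the 2 measured here had a summed intensity of 1855 to 2316 in SUMO-KD ischemia samples, 2093 to 2704 in SUMO-KD sham samples, 2035 to 2927 in wild-type ischemia samples and 3605 to 5241 in wild-type sham samples. The marker Wfs1 was present in every sample, at 989 to 2708. All 5 general neuron markers were measured. Their sum was 14806 to 16104, 14699 to 16044, 12776 to 14959 and 13354 to 16826 in the same order of groups. For ischemia 0 of these 5 were called in either genotype, while 10.7% of all genes were called in SUMO-KD mice and 18.5% in wild-type mice. Of 4 dentate markers, 3 were measured, and their sum was 1620 to 1946, 2790 to 3904, 1738 to 1838 and 2146 to 3532 in the same order of groups. The members of the dentate list did not move alike. Prox1 read 105, 64 and 98 in SUMO-KD ischemia samples, against 77, 55 and 87 in SUMO-KD sham samples, and 134, 98 and 181 in wild-type ischemia samples, against 36, 52 and 62 in wild-type sham samples. Prox1 rose by 1.03 in wild-type mice (limma adjusted p = 0.00473), while Lct fell, with differences of -1.25 in SUMO-KD mice (limma adjusted p = 0.000286) and -1.49 in wild-type mice (limma adjusted p = 6.4e-05). Of 8 microglial markers, 7 were measured, and their sum was 3068 to 3503 in SUMO-KD ischemia samples, against 4211 to 4428 in SUMO-KD sham samples. In wild-type mice the microglial sum was 3108 to 3369 after ischemia, against 4261 to 4616 after sham surgery. SUMO-KD ischemia replicate 2 also stood apart in the leukocyte markers S100a8 and S100a9. These read 705 and 398 on it, against 135 and 81.9 on replicate 1 and 158 and 71.8 on replicate 3 of that group. The other leukocyte markers measured, Ptprc, Cd3e and Cd3g, did not set that array apart. None of these CA1, dentate and microglial markers was listed at 0, and the dimmest, Itgam, read 16.1 to 35.0. The part of the ribosomal control and of these markers in the results below was not tested, except where a value without SUMO-KD ischemia replicate 2 is given.

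Few proteasome genes were called 3 hours after ischemia. In SUMO-KD mice 3 of 46 members were called, 1 higher and 2 lower, which is 6.52% of them, while 10.7% of all genes were called in that comparison, 6.08% higher and 4.62% lower. In wild-type mice 5 of 46 were called, 1 higher and 4 lower, which is 10.9% of them, while 18.5% of all genes were called, 9.59% higher and 8.88% lower. The split of all calls depended on the scaling: in wild-type mice 51.9% of the called genes were higher as deposited, and 40.9% after centring each array on its median. The inhibitor gene Psmf1 rose and the assembly chaperone gene Psmg2 fell in both genotypes. They were the 2 members that moved by over 0.5 log2 units in either genotype, with the other 44 within 0.5 of no change. The share of all genes that moved by over 0.5 was 9.04% in SUMO-KD mice and 12.6% in wild-type mice.

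The median difference of the 46 members between ischemia and sham was 0.01 in SUMO-KD mice, with quartiles of -0.13 and 0.11, against a median of -0.02 over all genes. In wild-type mice it was -0.03, with quartiles of -0.15 and 0.13, against -0.04 over all genes. The errors bound these differences. The 95% confidence interval of 37 of the 46 members lay inside 0.5 log2 units on either side of 0 in each genotype, and the median distance from the estimate to either end was 0.21. The interval was much wider for Psmc4, an ATPase subunit of the 19S, where it ran from -1.29 to 0.77 in wild-type mice. For Psmc4 wild-type ischemia replicate 3 read 418, against 1155 to 2312 on the other 11 arrays, and a second probe set of the gene showed differences of 0.07 in SUMO-KD mice and 0.04 in wild-type mice.

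**Figure D1:**
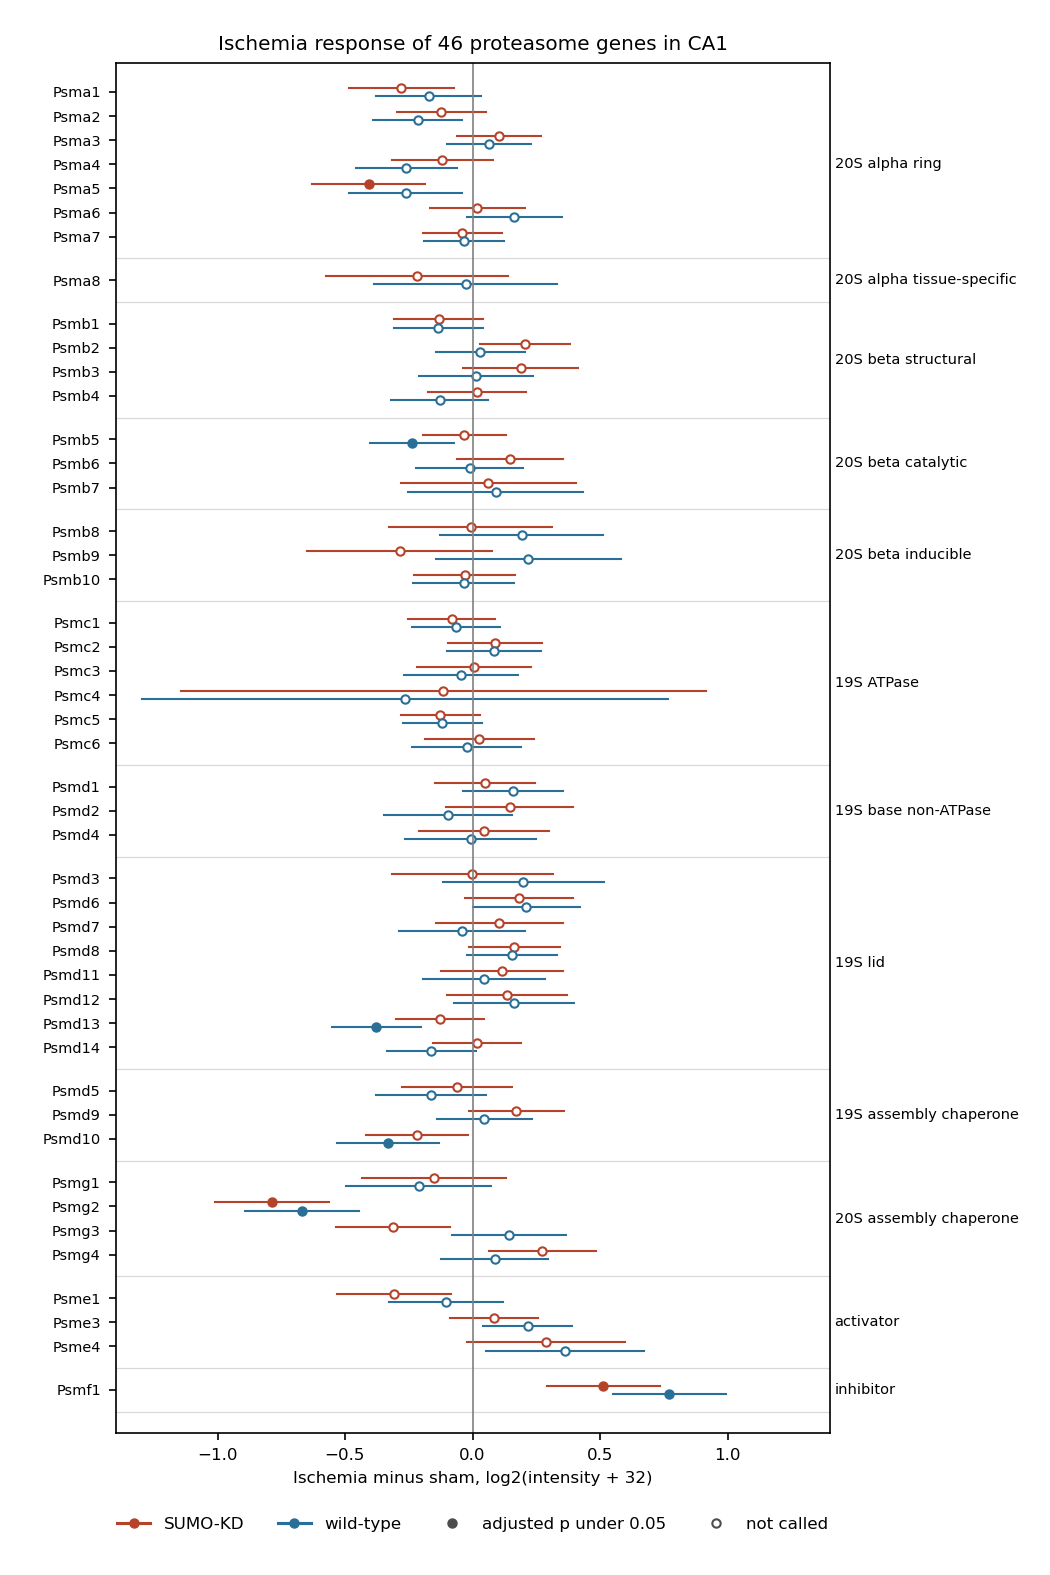
Log2 difference between ischemia and sham for each of the 46 proteasome genes, ordered by role, in SUMO-KD mice and in wild-type mice. Points are limma estimates from 3 samples per group and bars are 95% confidence intervals; most points lie near 0, Psmf1 lies to the right and Psmg2 to the left in both genotypes.

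Psmf1 encodes an inhibitor of the core particle. It read 541, 540 and 538 in SUMO-KD ischemia samples, against 390, 313 and 409 in SUMO-KD sham samples. In wild-type mice it read 563, 503 and 531 after ischemia, against 286, 287 and 323 after sham surgery. Every ischemia sample was above every sham sample, and the ischemia samples of both genotypes lay at about the same level. The rise was 0.51 log2 units in SUMO-KD mice (SE 0.10, 1.43-fold, limma adjusted p = 0.00795) and 0.77 in wild-type mice (SE 0.10, 1.71-fold, limma adjusted p = 0.00043). The response in SUMO-KD mice minus that in wild-type mice was -0.26 (95% confidence interval -0.57 to 0.05), with a limma adjusted p of 0.862. Without SUMO-KD ischemia replicate 2, the array that stood apart in its ribosomal control, the rise of Psmf1 in SUMO-KD mice was 0.51 (limma adjusted p = 0.0298).

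Psmf1 was represented by 4 probe sets, and 3 of them were called higher in both genotypes. The other 2 that rose had means of 240 and 77.5 and rose by 0.62 and 0.76 in SUMO-KD mice and by 0.76 and 0.81 in wild-type mice. The Psmf1 probe set that did not pass the test had a mean of 196, with differences of 0.23 in SUMO-KD mice and -0.03 in wild-type mice. Whether these probe sets read different transcripts of the gene was not tested.

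Psmg2 encodes an assembly chaperone that, paired with the product of Psmg1, guides the building of the alpha ring. It read 583, 478 and 518 in SUMO-KD ischemia samples, against 1020, 818 and 960 in SUMO-KD sham samples. The wild-type samples read 452, 456 and 465 after ischemia, against 710, 735 and 795 after sham surgery. No ischemia sample reached the level of any sham sample. The difference was -0.79 log2 units in SUMO-KD mice (SE 0.10, limma adjusted p = 0.000548) and -0.67 in wild-type mice (SE 0.10, limma adjusted p = 0.00106). Without SUMO-KD ischemia replicate 2 the difference of Psmg2 in SUMO-KD mice was -0.72 (limma adjusted p = 0.00352). Its second probe set, with a mean of 526, also fell, with differences of -0.79 in SUMO-KD mice and -0.60 in wild-type mice.

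The calls of Psmf1 and Psmg2 in each genotype held under the 10 other settings tried and with each of the 12 arrays left out in turn. The other core assembly chaperone genes among the members, Psmg1, Psmg3 and Psmg4, passed no test. Psmg1 read 483, 381 and 424 in SUMO-KD ischemia samples, against 508, 418 and 514 in SUMO-KD sham samples, and 416, 364 and 300 in wild-type ischemia samples, against 392, 444 and 422 in wild-type sham samples. Both pairs of groups overlapped for Psmg1, with differences of -0.15 (limma adjusted p = 0.544) and -0.21 (limma adjusted p = 0.301). Psmg3 and Psmg4, which encode a second chaperone pair, showed differences of -0.31 and 0.27 in SUMO-KD mice and 0.14 and 0.09 in wild-type mice. Psmg3 read 470, 499 and 404 in SUMO-KD ischemia samples, against 571, 569 and 582 in SUMO-KD sham samples. In wild-type mice Psmg3 read 556, 543 and 667 after ischemia, against 500, 525 and 561 after sham surgery. The response of Psmg3 in SUMO-KD mice minus that in wild-type mice was -0.46, with an unadjusted p of 0.00899 and a limma adjusted p of 0.718.

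**Figure D2:**
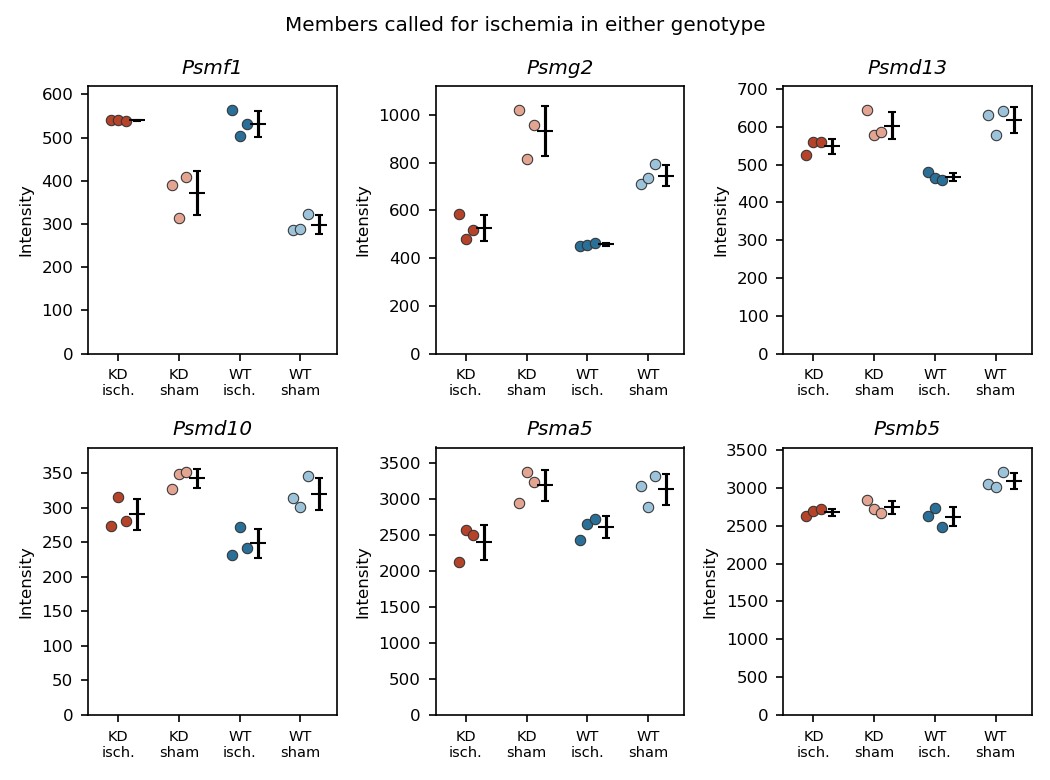
Intensity on each array of the members called in an ischemia comparison, in SUMO-KD ischemia, SUMO-KD sham, wild-type ischemia and wild-type sham samples, with 3 points per group and the group mean with a bar of 1 SD on either side. KD stands for SUMO-KD and WT for wild-type. For Psmf1 all ischemia points lie at 503 to 563, above the sham points, and for Psmg2 all ischemia points lie below the sham points.

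Among the 14 constitutive subunits of the core particle, 1 was called in each genotype, and both were lower. The median difference over these 14 was -0.01 in SUMO-KD mice and -0.08 in wild-type mice. Of the 17 subunits of the 19S, 0 were called in SUMO-KD mice and 1 in wild-type mice, with medians of 0.04 and -0.02. Of all genes, 10.7% were called in SUMO-KD mice and 18.5% in wild-type mice.

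Psma5, an alpha ring subunit, was the core gene called in SUMO-KD mice. It read 2122, 2571 and 2501 in SUMO-KD ischemia samples, against 2941, 3374 and 3238 in SUMO-KD sham samples, and 2431, 2655 and 2726 in wild-type ischemia samples, against 3179, 2892 and 3319 in wild-type sham samples. The ischemia samples lay below the sham samples in both genotypes. The difference was -0.41 in SUMO-KD mice (SE 0.10, limma adjusted p = 0.0252) and -0.26 in wild-type mice (SE 0.10, limma adjusted p = 0.0983). The call of Psma5 in SUMO-KD mice was lost in 4 of the 12 fits that left out 1 array, those that omitted replicate 2 or 3 of SUMO-KD sham, or replicate 1 or 3 of SUMO-KD ischemia, where the adjusted p reached 0.0898, and also with all its probe sets averaged (0.195) or with the compared groups fitted alone. A second probe set of Psma5, with a mean of 1261, fell in both genotypes, with differences of -0.46 in SUMO-KD mice (limma adjusted p = 0.0123) and -0.33 in wild-type mice (limma adjusted p = 0.0368).

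Psmb5 encodes the core subunit with chymotrypsin-like activity, the target of proteasome inhibitor drugs. It read 2630, 2694 and 2720 in SUMO-KD ischemia samples, against 2843, 2719 and 2664 in SUMO-KD sham samples, where the groups overlapped. In wild-type mice it read 2635, 2735 and 2484 after ischemia, against 3048, 3008 and 3213 after sham surgery, with no overlap. The difference was -0.03 in SUMO-KD mice (limma adjusted p = 0.86) and -0.24 in wild-type mice (SE 0.07, limma adjusted p = 0.0483). The wild-type call of Psmb5 was lost in each of the 12 fits that left out 1 array, with adjusted p from 0.0549 to 0.144, and under 6 of the 10 other settings. The other catalytic subunits passed no test. Psmb6, with caspase-like activity, differed by 0.15 in SUMO-KD mice and by -0.01 in wild-type mice, and Psmb7, with trypsin-like activity, by 0.06 and 0.09.

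Psmd13, a subunit of the lid of the 19S, was the 19S gene called in wild-type mice. It read 526, 560 and 561 in SUMO-KD ischemia samples, against 644, 579 and 585 in SUMO-KD sham samples. The wild-type samples read 480, 465 and 459 after ischemia, against 631, 580 and 643 after sham surgery. The groups did not overlap in either genotype, though the gap in SUMO-KD mice was small. The difference was -0.13 in SUMO-KD mice (limma adjusted p = 0.375) and -0.38 in wild-type mice (SE 0.08, limma adjusted p = 0.00706). The wild-type call held with each array left out, with adjusted p up to 0.0315. A second probe set of Psmd13, with a mean of 360, passed no test, at 0.00 in SUMO-KD mice and -0.10 in wild-type mice.

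Psmd10 encodes a chaperone of 19S assembly, also known as gankyrin. It read 273, 316 and 281 in SUMO-KD ischemia samples, against 327, 348 and 352 in SUMO-KD sham samples. In wild-type mice it read 231, 271 and 242 after ischemia, against 314, 301 and 345 after sham surgery. The ischemia samples lay below the sham samples in both genotypes. The difference was -0.22 in SUMO-KD mice (limma adjusted p = 0.165) and -0.33 in wild-type mice (SE 0.09, limma adjusted p = 0.0267). The wild-type call of Psmd10 was lost in 4 of 12 fits that left out 1 array, those without wild-type sham replicate 1 or 3 or wild-type ischemia replicate 1 or 3, with an adjusted p up to 0.0989, and with the compared groups fitted alone. The other chaperones of 19S assembly passed no test: Psmd5 differed by -0.06 and Psmd9 by 0.17 in SUMO-KD mice, and by -0.16 and 0.05 in wild-type mice.

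The mean of the ischemia responses of both genotypes, which rests on all 12 arrays, was called for 9 members, or 19.6%, with 2 higher and 7 lower, while 26.7% of all genes were called, 12.8% higher and 14% lower. After median centring 37.2% of all called genes were higher, against 47.7% as deposited. Of the 7 alpha ring subunits, 4 were lower, and of the 7 constitutive beta subunits 0 were called. The alpha subunits called were Psma5 at -0.33 (limma adjusted p = 0.00494), Psma1 at -0.23 (limma adjusted p = 0.0262), Psma2 at -0.17 (limma adjusted p = 0.0465) and Psma4 at -0.19 (limma adjusted p = 0.0493). The difference between the alpha and the beta ring was not tested. Psma5 was the member of this group whose call held with each array left out, while Psma1 lost its call in 4 of 12 such fits and Psma2 and Psma4 each in 10. Psma1 turned its direction when all its probe sets were averaged, as its dimmer probe sets read higher after ischemia. For those, with means of 84.6 and 58.2, the differences were 0.48 and 0.42 in SUMO-KD mice and 0.56 and 1.02 in wild-type mice, the wild-type ones called. The mean response was also called for Psmd10 at -0.27 (limma adjusted p = 0.00833) and Psmd13 at -0.25 (limma adjusted p = 0.00629), beside Psmf1 at 0.64 and Psmg2 at -0.73. With all probe sets of a gene averaged, Psma5 and Psmd13 lost the call for the mean response, at adjusted p = 0.159 and 0.0552 from limma.

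Of the 3 activator genes measured, read from the probe set used for each, 1 was called for the mean response and 0 within a genotype. Among all genes, 26.7% were called for the mean response, 10.7% in SUMO-KD mice and 18.5% in wild-type mice. Psme4 encodes a large nuclear activator of the core. It read 952, 813 and 795 in SUMO-KD ischemia samples, against 561, 767 and 763 in SUMO-KD sham samples, and 936, 1014 and 1074 in wild-type ischemia samples, against 695, 921 and 728 in wild-type sham samples. The ischemia samples lay above the sham samples in both genotypes, with wide spread. The mean response of Psme4 was 0.33 (SE 0.10, limma adjusted p = 0.0313), a call that was lost in 6 of 12 fits that left out 1 array, those without wild-type sham replicate 1 or 3, wild-type ischemia replicate 2 or 3, or replicate 1 of either SUMO-KD group. Within the genotypes the probe set used for Psme4 passed no test, at 0.29 in SUMO-KD mice (limma adjusted p = 0.24) and 0.36 in wild-type mice (limma adjusted p = 0.101). Without wild-type sham replicate 2 the wild-type difference was called, at 0.48 (limma adjusted p = 0.0443). A second probe set of Psme4, with a mean of 618, rose by 0.33 in wild-type mice (limma adjusted p = 0.0303) and by 0.29 for the mean response (limma adjusted p = 0.00726), and stood at 0.24 in SUMO-KD mice (limma adjusted p = 0.13). This second probe set carries the gene with shared probe sets left out, where Psme4 was called in wild-type mice (limma adjusted p = 0.0258). Psme1, a subunit of the interferon-inducible activator ring, read 615, 613 and 641 in SUMO-KD ischemia samples, against 721, 743 and 879 in SUMO-KD sham samples. In wild-type mice Psme1 read 594, 621 and 697 after ischemia, against 628, 751 and 685 after sham surgery. The groups separated in SUMO-KD mice and overlapped in wild-type mice, and the differences of -0.31 (limma adjusted p = 0.0818) and -0.11 (limma adjusted p = 0.539) passed no test in the fit reported. The mean response of Psme1, -0.21, was not called there either. It was called with an offset of 64, dim genes left out, quantile normalization, median centring, the replicate block, or trend and robust settings. Leaving out replicate 1 of wild-type sham or replicate 3 of wild-type ischemia also gave that call. The other alternatives run gave none for the mean response. Median centring also added a call of Psme1 within SUMO-KD mice. Psme3, which encodes the nuclear activator that works without ubiquitin, differed by 0.09 in SUMO-KD mice and by 0.22 in wild-type mice (limma adjusted p = 0.581 and 0.082).

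The inducible catalytic subunits, which replace Psmb5, Psmb6 and Psmb7 in the immunoproteasome, passed no test in either genotype. Psmb8 read 105, 92.2 and 96.6 in SUMO-KD ischemia samples, against 88.5, 104 and 104 in SUMO-KD sham samples, and 98.3, 91.1 and 57.7 in wild-type ischemia samples, against 67.5, 53.3 and 81.6 in wild-type sham samples. Psmb8 overlapped between ischemia and sham in both genotypes. Psmb9 read 32.3, 50.1 and 54.4 in SUMO-KD ischemia samples, against 51.0, 62.1 and 73.7 in SUMO-KD sham samples, and 66.3, 51.3 and 51.9 in wild-type ischemia samples, against 53.2, 27.1 and 54.5 in wild-type sham samples. The response of Psmb9 in SUMO-KD mice minus that in wild-type mice was -0.50, with a limma adjusted p of 0.807. Psmb10 differed by -0.03 in SUMO-KD mice and by -0.04 in wild-type mice, at intensities of 490 to 636 over all arrays. RefSeq places Psmb9 and Psmb8 on chromosome 17 with Tap1, a peptide transporter gene of antigen presentation, between them. Tap1 read 86, 98 and 113 in SUMO-KD ischemia samples, against 80, 89 and 112 in SUMO-KD sham samples, and 86, 80 and 105 in wild-type ischemia samples, against 67, 52 and 63 in wild-type sham samples. The difference of Tap1 was called in wild-type mice, at 0.40 (limma adjusted p = 0.0479).

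Of 18 listed genes of antigen processing and interferon signalling, 15 were measured, of which 0 were called in SUMO-KD mice and 7 rose in wild-type mice. Of all genes, 10.7% were called in SUMO-KD mice and 18.5% in wild-type mice, 9.59% higher. Besides Tap1 these were H2-K1 at 0.45, Irf1 at 0.46, Irf7 at 0.64, Irf9 at 0.65, Ifit1 at 1.14 and Ifit3 at 1.12. For the mean response of both genotypes 6 of the 15 were called, all higher, while 26.7% of all genes were called and 12.8% were higher. These 6 were H2-K1 at 0.24, Irf1 at 0.32, Irf7 at 0.53, Irf9 at 0.41, Ifit1 at 0.92 and Ifit3 at 0.81. For none of the 15 was the difference between genotypes called.

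**Figure D3:**
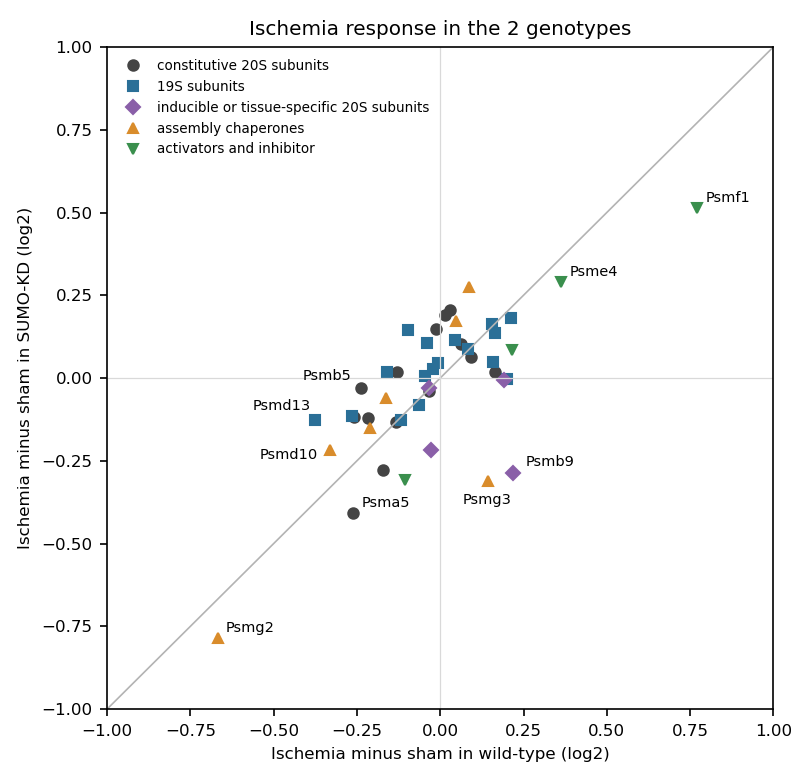
Log2 difference between ischemia and sham in SUMO-KD mice (vertical axis) against that in wild-type mice (horizontal axis), with 1 point per proteasome gene and the line of equal responses. Psmf1 at the upper right and Psmg2 at the lower left stand apart from the other 44 genes, which lie within 0.5 log2 units of 0 in both genotypes.

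The responses of the 46 members in the genotypes, which share no array, had a Pearson correlation of 0.71 and a Spearman correlation of 0.61, and 34 of 46 had the same sign. Over all 12394 genes the Pearson correlation was 0.78, the Spearman correlation was 0.64, and 8984 genes had the same sign. Without Psmf1 and Psmg2 the Pearson correlation was 0.52 over the other 44 members. These correlations are across genes on shared arrays and are given as descriptions. For the difference between the responses of the genotypes, 0 of 46 members were called, while 0.0161% of all genes were. There 2 of 46 members, Psmd13 and Psmg3, had an unadjusted p under 0.05, as did 768 of all 12394 genes.

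No proteasome gene was called between SUMO-KD and wild-type mice within a surgery by limma, while 1.56% of all genes were called after ischemia and 2.1% after sham surgery. At an unadjusted p under 0.05 there were 7 of 46 members in each. Of all 12394 genes, 1915 passed that mark after ischemia and 1758 after sham surgery. Psma4, Psmc3 and Psmd2 were in both sets of members. The mean of both surgeries was added as a comparison after the data were seen. In that comparison 3 of 46 members were called, which is 6.52%, while 6.12% of all genes were, 3.97% higher and 2.15% lower. Its values are a description of genes already seen to differ.

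Psmc3, an ATPase subunit of the 19S, was lower in SUMO-KD mice. It read 1868, 1924 and 2031 in SUMO-KD ischemia samples, against 2293, 2267 and 2811 in wild-type ischemia samples. After sham surgery it read 2014, 1921 and 1862 in SUMO-KD mice, against 2347, 2764 and 2474 in wild-type mice. All 6 SUMO-KD samples lay below all 6 wild-type samples. The difference was -0.33 after ischemia (limma adjusted p = 0.151), -0.38 after sham surgery (limma adjusted p = 0.0943) and -0.35 over both (SE 0.07, limma adjusted p = 0.0159).

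Psmd2, a scaffold subunit of the 19S base, was higher in SUMO-KD mice. It read 2476, 2628 and 3116 in SUMO-KD ischemia samples, against 1880, 1790 and 2114 in wild-type ischemia samples, and 2536, 2185 and 2695 in SUMO-KD sham samples, against 1944, 2076 and 2163 in wild-type sham samples. Within each surgery the genotypes did not overlap. The difference was 0.50 after ischemia (limma adjusted p = 0.0602), 0.25 after sham surgery (limma adjusted p = 0.342) and 0.38 over both (SE 0.08, limma adjusted p = 0.0201). The call of Psmd2 over both was lost without replicate 1 of wild-type sham, replicate 3 of SUMO-KD sham or SUMO-KD replicate 3 after ischemia, where the adjusted p reached 0.0566.

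Psma4, an alpha ring subunit, was also higher in SUMO-KD mice. It read 2739, 2948 and 3079 in SUMO-KD ischemia samples, against 2105, 2397 and 2107 in wild-type ischemia samples. After sham surgery Psma4 read 3182, 2936 and 3410 in SUMO-KD mice, against 2720, 2533 and 2664 in wild-type mice. The genotypes did not overlap within either surgery. The difference was 0.40 after ischemia (limma adjusted p = 0.0545), 0.26 after sham surgery (limma adjusted p = 0.203) and 0.33 over both (SE 0.06, limma adjusted p = 0.0125). The CA1 marker Wfs1 also differed by genotype after sham surgery, at 1343, 1225 and 1058 in SUMO-KD mice against 2708, 2126 and 1922 in wild-type mice. Of 6 astrocyte markers, all measured, 2 were higher in SUMO-KD mice after sham surgery, while 2.1% of all genes were called there. Gfap read 1700, 1572 and 1556 in SUMO-KD sham samples, against 1025, 953 and 1208 in wild-type sham samples (limma adjusted p = 0.0449). Aqp4 read 1872, 1966 and 2295 in SUMO-KD sham samples, against 1320, 1326 and 1589 in wild-type sham samples (limma adjusted p = 0.0253). The summed intensity of the 6 was 12324 to 14156 in SUMO-KD sham samples, against 10079 to 11752 in wild-type sham samples. After ischemia it was 12156 to 12854 in SUMO-KD mice, against 11388 to 13150 in wild-type mice, and 0 of the 6 were called. The part of Wfs1 and of the astrocyte markers in these differences was not tested.

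**Figure D4:**
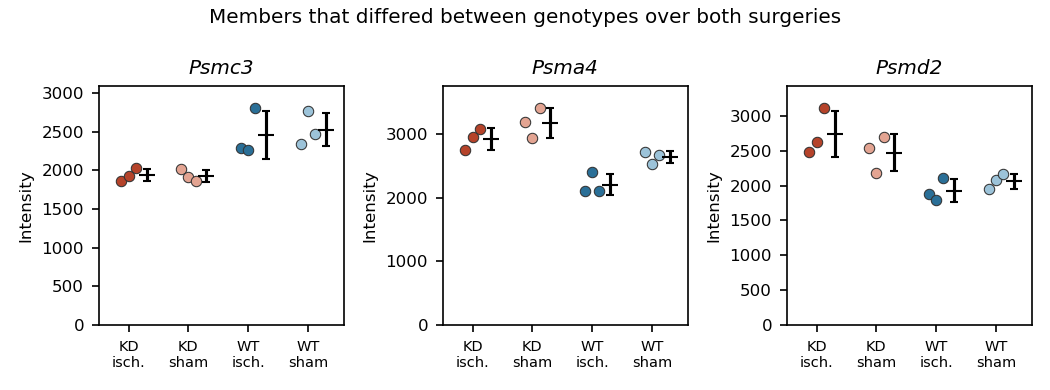
Intensity on each array of Psmc3, Psma4 and Psmd2, the members called for the mean genotype difference of both surgeries, in SUMO-KD ischemia, SUMO-KD sham, wild-type ischemia and wild-type sham samples, with 3 points per group and the group mean with a bar of 1 SD on either side. Psmc3 is lower in SUMO-KD samples of both surgeries, and Psmd2 and Psma4 are higher.

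How much a result for a gene rests on its probe set was read from the 21 members that had several. Of their 37 probe sets that were not used, 4 were called in SUMO-KD mice, 2 of them higher. Of all single-gene probe sets 8.74% were called there, 5.42% higher. In wild-type mice 11 of the 37 were called, 9 of them higher, while 15.9% of all were, 9.15% higher. These 11 belonged to Psma1, Psmc6 and Psmf1, with 2 each, and to Psma5, Psmd6, Psmd11, Psme4 and Psmg2. Psmd6, a lid subunit, and Psmc6, an ATPase subunit, had a second probe set that rose in wild-type mice. The used probe set of Psmd6 differed by 0.21 and passed no test, while its second probe set rose by 0.46 (limma adjusted p = 0.0114). The used probe set of Psmc6 differed by -0.02, while its second probe set rose by 0.42 (limma adjusted p = 0.0116). Another probe set of Psmc6, with a mean of 181, rose by 0.55 in wild-type mice (limma adjusted p = 0.0385). In SUMO-KD mice the second probe sets of Psmd6 and Psmc6 differed by 0.05 and 0.10, and the other of Psmc6 by 0.11. Of the 5 unused probe sets of Psmd11, a lid subunit, 1 rose by 0.42 in wild-type mice (limma adjusted p = 0.0235) and differed by -0.12 in SUMO-KD mice, while the others passed no test. Of the 37 unused probe sets, 12 had a mean intensity under 100.

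**Figure D5:**
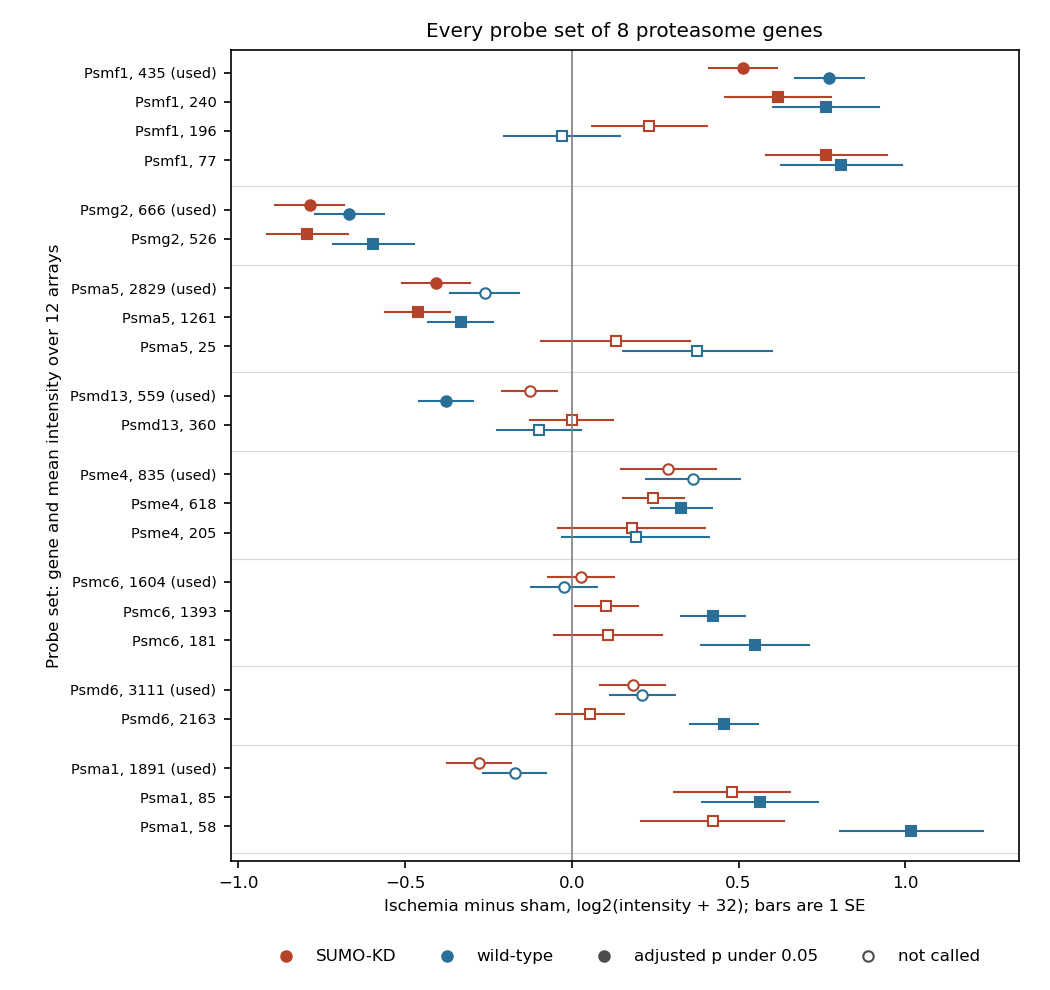
Log2 difference between ischemia and sham of every probe set of Psmf1, Psmg2, Psma5, Psmd13, Psme4, Psmc6, Psmd6 and Psma1 in both genotypes. These genes were picked from the 21 members that had several probe sets, and the rest are not drawn. The probe set used for the gene and its other probe sets are different marks. Probe sets of Psmf1 lie mostly above 0 and both of Psmg2 lie below 0, while those of Psma1, Psmc6 and Psmd6 spread widely in wild-type mice.

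The 27 listed partners and regulators of the proteasome, of which 18 were measured, held 2 called genes in each genotype, while 10.7% of all genes were called in SUMO-KD mice and 18.5% in wild-type mice. Zfand2a, which encodes a stress-induced zinc finger protein that binds the 19S, read 1888, 2044 and 1906 in SUMO-KD ischemia samples, against 1143, 1025 and 1027 in SUMO-KD sham samples, and 2003, 1676 and 1985 in wild-type ischemia samples, against 953, 925 and 898 in wild-type sham samples. The rise was 0.85 in SUMO-KD mice (limma adjusted p = 0.000154) and 1.0 in wild-type mice (limma adjusted p = 3.42e-05). Ngly1, which encodes the enzyme that removes sugars from misfolded proteins and helps activate the transcription factor Nfe2l1, fell, with differences of -0.46 in SUMO-KD mice (limma adjusted p = 0.00358) and -0.41 in wild-type mice (limma adjusted p = 0.00424). Nfe2l1, the factor that raises proteasome genes together when the proteasome is inhibited, read 1465, 1885 and 1797 in SUMO-KD ischemia samples, against 1627, 1550 and 1853 in SUMO-KD sham samples, and 1249, 1389 and 1503 in wild-type ischemia samples, against 1510, 1337 and 1649 in wild-type sham samples. Its groups overlapped and the differences were 0.03 and -0.11. For the mean response of both genotypes 7 of the 18 were called, while 26.7% of all genes were. Besides Zfand2a and Ngly1, Pomp, the maturation factor of the core particle, was lower at -0.23, Uchl5, a deubiquitinase of the 19S, at -0.24, and Ube3c, a ubiquitin ligase bound to the proteasome, at -0.25. The shuttle factors Rad23b and Ubqln1, which bring ubiquitinated proteins to the proteasome, were higher at 0.25 and 0.19.

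Promoter sequence was read to show what stands in front of genes that moved and what the members share there. RefSeq promoter windows of build GRCm38.p6, from 250 bases before to 50 bases after the start of the gene, were held for 38 of the 46 members, in 40 windows. The windows of Psmf1, Psma5 and Psmd13 are shown 5′ to 3′ on the strand of the gene, as examples among the members called for an ischemia response, chosen after their values and matches were seen. Capitals mark matches, on either strand, to the core of the antioxidant response element, TGANNNNGC, which Nfe2l1 can bind, and to the ETS site CCGGAAG. The window of Psmf1 lies at chr2:151741261-151741560 on the minus strand, that of Psma5 at chr3:108256676-108256975 on the plus strand, and that of Psmd13 at chr7:140882144-140882443 on the plus strand.
Psmf1: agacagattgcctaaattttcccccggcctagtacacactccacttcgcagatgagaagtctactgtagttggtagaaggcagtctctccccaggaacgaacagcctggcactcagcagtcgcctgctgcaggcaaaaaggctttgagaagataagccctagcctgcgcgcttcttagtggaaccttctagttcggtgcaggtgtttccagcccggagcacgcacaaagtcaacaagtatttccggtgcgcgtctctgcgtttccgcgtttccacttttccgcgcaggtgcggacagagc
Psma5: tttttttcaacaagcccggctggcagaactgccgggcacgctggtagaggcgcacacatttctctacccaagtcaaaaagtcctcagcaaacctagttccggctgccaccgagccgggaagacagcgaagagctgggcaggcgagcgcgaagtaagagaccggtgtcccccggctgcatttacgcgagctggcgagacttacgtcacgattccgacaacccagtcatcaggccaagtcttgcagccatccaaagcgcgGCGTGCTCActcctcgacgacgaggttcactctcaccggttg
Psmd13: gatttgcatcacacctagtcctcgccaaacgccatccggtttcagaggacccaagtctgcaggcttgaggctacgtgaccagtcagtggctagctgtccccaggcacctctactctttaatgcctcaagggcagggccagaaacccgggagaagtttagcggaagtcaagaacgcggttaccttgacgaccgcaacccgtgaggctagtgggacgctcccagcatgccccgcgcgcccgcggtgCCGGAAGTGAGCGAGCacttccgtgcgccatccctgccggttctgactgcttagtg

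The Psmf1 window held no match to either motif, that of Psma5 held 1 match to the antioxidant core, and that of Psmd13 held 1 match to each. Among the 40 member windows, 22 held the antioxidant core, or 55.0%, against 42.3% of the windows of all measured genes. The ETS site stood in 15 member windows, or 37.5%, against 14.0% of those of measured genes. The letters CCAAT stood in 32.5% of member windows against 37.1%, and the interferon factor letters GAAANNGAA in 17.5% against 7.15%. All motifs were searched on both strands, and the marked matches of the antioxidant core and the ETS site did not overlap in the windows shown. A match of letters is a description of the window and does not show that a factor binds there.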

How the data were processed

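RNA of CA1 samples was isolated with Trizol and turned into biotin-labelled target with MessageAmp Premier, per the labels, for 12 Affymetrix arrays. The deposited table holds 1 linear intensity per probe set and array, from 0.0237 to 24136. Each array had a mean of 500.2 after removal of 2% at each end, and medians were 141 to 162. Partek 6.6 and RMA are named in the submitters' processing notes, with no role. How the table was made is not stated there. Of 22690 probe sets, 20393 had 1 gene symbol, 691 had several and 1606 had no listed gene.

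For each gene the probe set with the highest mean log2(intensity + 32) was taken, and nothing was filtered, so all 46 members were fitted. The fit was limma 3.58.1 (R 4.3.3) on all 12 arrays, with 1 mean per group and two-sided p-values adjusted by Benjamini-Hochberg over 12394 genes. There were 6 planned comparisons, and the mean genotype difference was added after seeing the data. Named members were those called in a planned comparison, those with fixed roles (catalytic and inducible subunits, activators, the inhibitor), and the 3 largest rises and falls of each planned comparison. Of related genes, Nfe2l1 and called genes were named. Other genes were named after their values were seen. The members and gene lists were chosen with earlier results of these data known. The labels call the samples biological replicates and give no litter or surgery day. Replicate numbers were not used to pair samples in the fit reported. Deviations of same-numbered samples in different groups correlated between -0.17 and 0.28, with a median of 0.06. For samples of different numbers the range was -0.36 to 0.34, with a median of -0.03. The procedure was tested on simulated data. Alternatives were offsets of 16 and 64, averaging over probe sets, leaving out shared probe sets, dim genes or each array, quantile normalization, median centring, the replicate block, the compared groups only, and trend with robust eBayes. Psmb11 was not analysed here, and no promoter window of Psmg2 was used.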

Additional observations from a re-analysis of the deposited data

How the results depend on the processing

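In the fit reported, the share of all genes called after ischemia was 18.5% in wild-type mice and 10.7% in SUMO-KD mice. Between genotypes it was 1.56% after ischemia and 2.1% after sham surgery. For the mean response it was 26.7%, and for the mean genotype difference 6.12%. With quantile normalization, all calls in wild-type mice moved from 1188 higher and 1101 lower to 1133 and 1326. The counts below were not set against the share under each setting. The number of proteasome genes called in wild-type mice after ischemia was 5 in the fit reported and 8 with probe sets averaged per gene. It was 3 with the compared groups only, and 3 to 5 with each array left out. The 3 that remained called with the compared groups only, and without wild-type sham replicate 1, were Psmd13, Psmf1 and Psmg2. In SUMO-KD mice after ischemia it was 3, and 2 to 3 with an array left out. It was 4 there with median centring, which added Psme1, and 4 with trend and robust settings, which added Psma1. With probe sets averaged or the compared groups only it was 2. Between genotypes after ischemia it was 0 in the fit reported, 2 with an offset of 64, 2 with dim genes left out, 2 with trend and robust settings, 1 with quantile normalization, 1 with the replicate block, and 0 to 1 with an array left out. The genes called between genotypes there were Psma4, Psmd2 or both, except Psma8 without wild-type ischemia replicate 3. Between genotypes after sham surgery it was 0, 1 with trend and robust settings, and 0 to 1 with an array left out. The mean ischemia response had 9 calls, and 5 to 9 with an array left out, the 5 without SUMO-KD sham replicate 1. It had 13 with an offset of 64 or with trend and robust settings, and 12 with dim genes left out. It had 10 with probe sets averaged or median centring, 8 with shared probe sets left out and 7 with an offset of 16. The genes added with the offset of 64 were Psmd6, Psmd8, Psme1 and Psme3. The mean genotype difference had 3, and 2 to 4 with an array left out. The difference of the responses had 0 under every alternative run. With the mean of its probe sets Psma1 turned positive, to 0.47 in wild-type mice (limma adjusted p = 0.0195) and 0.34 for the mean response (limma adjusted p = 0.0121), as its dim probe sets read higher after ischemia. The replicate block gave 4 calls in wild-type mice and 3 in SUMO-KD mice after ischemia and 9 for the mean response; 6 of 12 arrays correlated best with an array of their own number. The signal of dim members such as Psmb9 and Psma8 lies near the offset, which limits what their differences can show.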

Other observations

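Psme2, the partner of Psme1 in the interferon-inducible activator ring, was read only by a probe set that also lists Psme2b, so it was not counted as a member. That probe set had a mean of 598 in SUMO-KD ischemia samples, against 621 in SUMO-KD sham samples, and of 567 in wild-type ischemia samples, against 583 in wild-type sham samples. The differences were -0.05 (limma adjusted p = 0.791) and -0.04 (limma adjusted p = 0.827). RefSeq places Psme1 and Psme2 on chromosome 14 with Emc9 between them. Psma8, which encodes an alpha subunit of the testis, read 2.92 to 28.4 over all arrays, below the offset of 32 on each.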
